A study of Mus musculus with 2 samples.

Results

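The regions described are DNase-seq peaks whose centres lay inside protein-coding sequence, away from any promoter. Members are replicate 1 peaks that share 1 bp or more with a replicate 2 peak and whose centre falls in a coding (CDS) segment of a protein-coding transcript, over 1000 bp from every GENCODE M21 transcript start. This gave 793 of the 60789 peaks found in both libraries, or 1.30%. The other shared peaks were 21524 promoter peaks, within 1000 bp of a start, 18515 intergenic peaks, 18504 intronic peaks and 1453 peaks in exons outside coding sequence. No height or other measured value entered the choice beyond the presence of a peak in both libraries.

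DNase-seq was done on cerebral cortex, right side, of 2-month-old males of B6CASTF1/J, the first-generation hybrid of C57BL/6J and CAST/EiJ. The labels name no treatment. There was 1 group of 2 libraries, replicate 1 from animal 5 and replicate 2 from animal 6. The donor record is identical for both, and only the animal numbers tell them apart. With 1 group nothing could be tested between conditions, and the values below are compared between the libraries and with intronic peaks at the same minimum distance from a start.

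DNase I cuts DNA where nucleosomes or other proteins leave it exposed, and a peak is a stretch that was cut often in the nuclei of the tissue. Exons carry the protein code, and some also hold binding sites for transcription factors, among them the insulator protein CTCF. A stretch of exon can also be open because an enhancer, or a start that the annotation lacks, overlaps it. In a bulk sample, fewer open cells and less opening per cell cannot be told apart.

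The tissue label was checked on promoters. Of 8 neuronal marker genes, 8 in replicate 1 and 6 in replicate 2 had a promoter peak, and none of 6 markers of other organs had one in either library. Of 4 astrocyte markers 3 and 3 had one, and of 4 oligodendrocyte markers 2 and 2. None of 4 microglial markers had one, and endothelial markers had 3 and 1 of 4. For scale, 18406 protein-coding genes had coding sequence over 1000 bp from a start but no member. Of these, 62.6% had a promoter peak in both libraries. The neuronal count, 6 of 8 in both libraries, is close to that share and alone says little about the tissue. The smaller, stricter peak set held 91818 peaks in replicate 1 and 75245 in replicate 2, and the sources used here do not give the sequencing depth.

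Sequences of 10 of the peaks are printed because each shows one of the features measured below. All are GRCm38.p6 reference sequence on the coding strand of the named gene, 5′ to 3′. They are not reads of the hybrid animals, whose CAST/EiJ chromosomes may differ from them. None holds an annotated untranslated base, and each occurs once in the assembly. The first 4 hold the CTCF word CCANNAGNNGGC on either strand, in capitals. Synpo2l, an actin-associated muscle protein gene, had its peak at chr14:20661061-20661180 (minus strand). Spi1, the myeloid factor PU.1, had its peak at chr2:91115161-91115320 (plus strand). Klf1, an erythroid factor, had its peak at chr8:84903081-84903320 (plus strand), and Hey1, a bHLH factor in Notch signalling, at chr3:8664641-8664820 (minus strand).
Synpo2l: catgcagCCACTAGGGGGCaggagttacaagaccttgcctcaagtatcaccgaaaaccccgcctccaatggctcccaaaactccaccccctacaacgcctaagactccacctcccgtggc
Spi1: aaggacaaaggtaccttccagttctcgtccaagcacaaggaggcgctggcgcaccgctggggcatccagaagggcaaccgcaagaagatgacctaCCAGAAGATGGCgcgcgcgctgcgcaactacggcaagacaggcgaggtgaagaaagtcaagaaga
Klf1: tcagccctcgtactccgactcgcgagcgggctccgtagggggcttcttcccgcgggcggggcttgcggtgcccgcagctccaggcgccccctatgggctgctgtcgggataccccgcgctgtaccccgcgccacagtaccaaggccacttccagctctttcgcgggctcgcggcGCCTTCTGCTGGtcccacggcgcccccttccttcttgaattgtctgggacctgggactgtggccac
Hey1: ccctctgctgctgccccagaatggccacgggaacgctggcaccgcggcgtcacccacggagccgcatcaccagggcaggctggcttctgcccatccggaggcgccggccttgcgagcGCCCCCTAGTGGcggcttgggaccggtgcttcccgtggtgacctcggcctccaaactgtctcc

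The next holds the palindromic RFX word GTTNCCNNGGNAAC, in capitals. Printed peaks that cross an exon boundary include intron, and whether this word lies in coding or intronic bases was not determined. Syne2, which encodes a protein linking the nucleus to the cytoskeleton, had its peak at chr12:75919021-75919200 (plus strand). The peak of Hcrt, the precursor of the orexin neuropeptides, at chr11:100761801-100762040 (minus strand), holds the NRF1 word GCGCNTGCGC. In Zfp771, a zinc finger gene, at chr7:127254021-127254300 (plus strand), the capitals mark 2 copies of CANACNGGNGANAANCC, the codons that link neighbouring zinc fingers.
Syne2: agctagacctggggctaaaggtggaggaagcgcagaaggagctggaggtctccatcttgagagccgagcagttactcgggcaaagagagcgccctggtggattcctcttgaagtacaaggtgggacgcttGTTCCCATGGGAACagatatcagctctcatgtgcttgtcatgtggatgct
Hcrt: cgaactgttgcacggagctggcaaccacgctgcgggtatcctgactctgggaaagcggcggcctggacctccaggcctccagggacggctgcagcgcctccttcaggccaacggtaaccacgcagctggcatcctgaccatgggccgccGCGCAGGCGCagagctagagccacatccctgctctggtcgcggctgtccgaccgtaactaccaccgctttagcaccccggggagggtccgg
Zfp771: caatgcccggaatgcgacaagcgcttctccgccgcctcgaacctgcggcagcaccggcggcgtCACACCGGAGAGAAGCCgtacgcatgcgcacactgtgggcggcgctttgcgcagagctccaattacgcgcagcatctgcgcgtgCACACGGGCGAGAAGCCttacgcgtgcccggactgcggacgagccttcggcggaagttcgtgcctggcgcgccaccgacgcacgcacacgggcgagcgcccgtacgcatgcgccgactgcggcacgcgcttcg

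In the last 3 sequences the capitals mark CpG dinucleotides, to show how widely the peaks differed in them. The peak of Rsad1, at chr11:94544061-94544220 (minus strand), was the tallest that could be printed under the limits on length, copies and untranslated bases. Tchh encodes trichohyalin, a structural protein of hair follicles, and the peak at chr3:93447281-93447560 (plus strand) holds 22 CpGs in 280 bases. Slitrk1 encodes a neuronal membrane protein of synapses and neurites, and the peak at chr14:108912021-108912280 (minus strand) holds 7 CpGs in 260 bases.
Rsad1: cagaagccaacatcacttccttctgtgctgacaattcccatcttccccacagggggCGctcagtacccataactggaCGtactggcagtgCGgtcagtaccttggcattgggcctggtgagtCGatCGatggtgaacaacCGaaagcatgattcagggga
Tchh: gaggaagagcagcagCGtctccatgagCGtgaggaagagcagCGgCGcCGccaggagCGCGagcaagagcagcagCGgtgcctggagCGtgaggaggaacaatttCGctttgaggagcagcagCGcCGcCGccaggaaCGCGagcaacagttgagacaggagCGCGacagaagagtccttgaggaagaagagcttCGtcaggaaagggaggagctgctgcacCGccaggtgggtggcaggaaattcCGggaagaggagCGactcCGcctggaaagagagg
Slitrk1: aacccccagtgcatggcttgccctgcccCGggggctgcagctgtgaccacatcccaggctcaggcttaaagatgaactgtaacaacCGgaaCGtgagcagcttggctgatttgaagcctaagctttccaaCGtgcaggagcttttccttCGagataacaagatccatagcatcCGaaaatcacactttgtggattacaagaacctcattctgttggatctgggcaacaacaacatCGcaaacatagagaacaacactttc

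The height of a peak is the signal given by the authors, on a scale that is not stated. In replicate 1 the lowest of the 793 heights was 0.282, the median 1.16 and the highest 7.59. In replicate 2 the lowest was 0.215, the median 0.822 and the highest 5.12. Intronic peaks had medians of 1.08 and 0.860. Among shared peaks, coding-exon ones were thus slightly taller than intronic ones in replicate 1 and slightly lower in replicate 2. The log2 ratio of the medians was 0.015 ± 0.115 (SD, n = 2 libraries). When the shared intronic peaks were weighted to the GC content of the coding-exon peaks, it was -0.15 ± 0.027 (SD, n = 2). Over all peaks of a library, shared or not, it was -0.065 in replicate 1 and 0.029 in replicate 2, the other direction in each. Shared promoter peaks were taller than shared coding-exon and intronic ones, with medians of 1.94 and 1.31.

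The order of heights was much the same in both animals. Over the 793 peaks Spearman's rho between the libraries was 0.879 and Pearson's r of log10 height 0.887, and across the 18504 intronic peaks they were 0.844 and 0.859. These describe peaks that were selected for presence in both libraries. Replicate 1 had the higher value for 704 of the 793, with a median ratio of replicate 1 over replicate 2 of 1.42, against 1.31 for intronic peaks. Of the coding-exon peaks 9 (1.13%) lay over 2-fold from their median ratio, against 1.99% of intronic peaks and 3.21% of intergenic peaks.

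**Figure D1:**
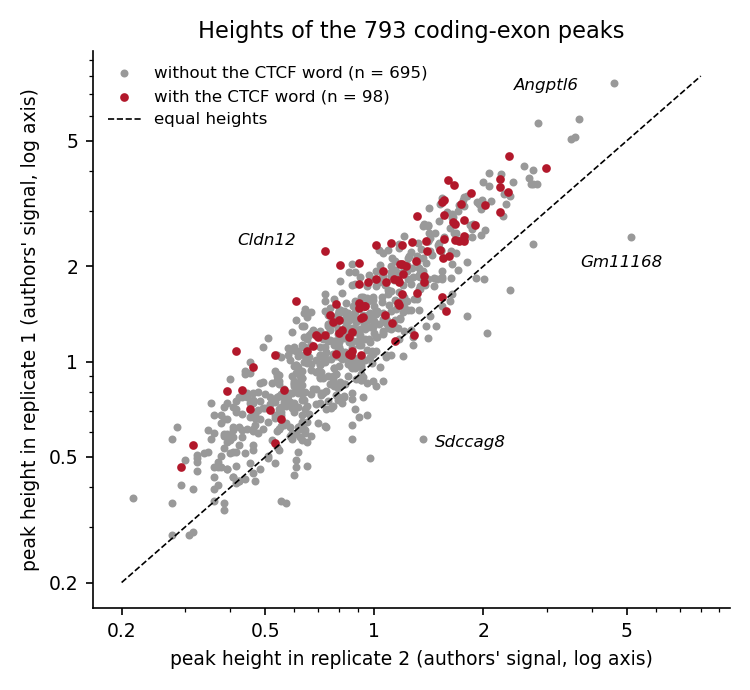
Peak height in replicate 1 against replicate 2 for each of the 793 coding-exon peaks, replicate 2 across and replicate 1 upward, both on log axes, with peaks that hold the CTCF word in red and the line of equal heights dashed. Most points lie above the line, 704 of 793, and Gm11168 and Sdccag8 stand below it.

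The tallest coding-exon peak, by the mean of the log10 heights, lay in the first coding exon of Angptl6, which encodes a secreted angiopoietin-like factor (chr9:20878141-20878520). Its height was 7.59 in replicate 1 and 4.59 in replicate 2, it lay 1396 bp from the nearest start, and 70.3% of its bases were G or C. Crlf2, a cytokine receptor gene, followed at 5.86 and 3.69 and lay 1058 bp from a start, close to the limit. The uncharacterized gene 1700008O03Rik had 5.14 and 3.59 in its last coding exon. Fbxl22, an F-box protein gene, had 5.06 and 3.50, also in the last coding exon. All 4 held at least 6 footprints in each library.

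Rsad1, whose sequence is printed above, differed from these in having 54.4% GC and only 2 and 3 footprints, with heights of 5.70 and 2.83. Among the 20 tallest were genes of blood and immune lineages, such as Spi1 (4.46 and 2.36), Klf1 (3.57 and 2.23) and Def6, an exchange factor of lymphocytes (3.82 and 2.68). Genes that most cells use were also there: Psmc2, a proteasome ATPase gene, had 3.64 and 2.75, and Ino80c, a chromatin remodelling subunit gene, had 4.16 and 2.59. Gdf15, a stress-induced cytokine gene, had 3.64 and 2.81 and carried 9 and 10 footprints. Synpo2l (4.09 and 2.98) and Zfp219 (3.69 and 2.42) were similar in height. The remaining members of the 20, Zfp771, 2310034G01Rik, Rin2, Epg5, Cwh43, A630076J17Rik and Gm11168, had between 2.47 and 4.04 in replicate 1.

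Gm11168 was the exception in sequence and in balance. Its peak (chr9:3006800-3006920) measured 2.47 in replicate 1 and 5.12 in replicate 2, and its words of 31 bases occurred in 58 copies in the assembly. All of its bases were masked as repeats. Of the 793 peaks 783 were single-copy, 8 had more than 1 copy and 2 were too short to score. The other multi-copy peaks lay in Hist1h2be, a histone gene with 9 copies, in the axonemal dynein genes Dnah7b and Dnah7c, and in Ncor1, Dnmt3c, Cd200r4 and Adam26b, with 2 or 3 copies each. Where a sequence has copies, the reads may come from any of them.

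The peaks that departed most from the common ratio were few. Cldn12, a claudin gene, had 2.23 in replicate 1 and 0.730 in replicate 2, a ratio of 3.06. Pald1 had 1.08 and 0.415, and Tmem8 had 1.55 and 0.607. At the other end, besides Gm11168, Sdccag8, a centrosome gene, had 0.570 and 1.36 (ratio 0.419) and Oca2, a melanosome transporter gene, had 0.494 and 0.975 (ratio 0.507). The 3 with the smallest ratios had a GC content of 36.4 to 41.4%, and the 3 with the largest 52.0 to 59.4%.

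GC content moved with the ratio across the whole set. The 5 coding-exon peaks under 40% GC had a median ratio of 0.739. Those with 40 to 50% GC had a median ratio of 1.28 (n = 162), those with 50 to 60% 1.41 (n = 360), those with 60 to 70% 1.52 (n = 209) and those with 70% or more 1.56 (n = 57). Intronic peaks in these classes had 1.07 (n = 533), 1.22, 1.37, 1.46 and 1.49. Over all peaks the median log2 ratio of coding-exon peaks exceeded that of intronic ones by 0.12, and by 0.034 when intronic peaks were weighted to the same GC content. The part of GC content in the ratio was not tested beyond this weighting.

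Coding sequence far from starts held peaks more densely than introns did. Replicate 1 had 1512 coding-exon peaks in 25 Mb of such sequence, or 60.4 per Mb, against 29.5 per Mb of intron, and replicate 2 had 936, or 37.4 per Mb, against 23.7. The density in coding exons over that in introns was 1.81 ± 0.331 (SD, n = 2 libraries). Over intergenic sequence, with 19.9 and 17.4 peaks per Mb, it was 2.59 ± 0.628 (SD, n = 2). The lead was in the same direction in both libraries but differed in size. Replicate 2 had only 61.9% as many coding-exon peaks as replicate 1 and 80.2% as many intronic ones. The ratio to introns was 2.00 and 1.64 with limits of 500 and 2500 bp. It was 1.66 when peaks were assigned by their share of bases in CDS. The densities were not matched for distance to a start or GC content. Shared coding-exon peaks lay nearer to a start, at a median of 4849 bp against 11279 bp for intronic ones. Whether reads could be placed equally well in coding, intronic and intergenic sequence was not tested.

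Coding-exon peaks of replicate 1 were found less often in the other library than intronic ones, and those of replicate 2 more often. Of the 1512 in replicate 1, 793 (52.4%, exact 95% binomial interval 49.9 to 55.0) overlapped a replicate 2 peak, against 61.8% of 29964 intronic peaks. Of the 936 in replicate 2, 793 (84.7%, interval 82.3 to 87.0) overlapped a replicate 1 peak, against 77.0% of 24038 intronic peaks. The number found was 793 from either side, and 18504 and 18506 for introns. The 2 opposite gaps therefore restate the difference in peak numbers, 61.9% against 80.2%, and are not separate results. Such intervals cover counting error of the coding-exon share only, and those of the gaps below take the intronic share as fixed. With intronic peaks weighted to the same GC content, the gaps to introns were -4.65 and 2.33 percentage points, against -9.31 and 7.74 unweighted, and the interval of the second, -0.134 to 4.58, included 0.

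Peaks were then compared at like height, in 5 classes cut at equal shares of the intronic heights. The direction was the same in every class of replicate 1 and in every class of replicate 2 but the tallest. The classes split the same overlaps, so they carry the same difference in peak numbers and are not separate results. They were not weighted for GC content. In the lowest class of replicate 1, 16.9% of 337 coding-exon peaks (interval 13.1 to 21.4) were found in replicate 2, against 26.2% of intronic peaks, and in the tallest class 93.1% (interval 89.5 to 95.8) against 95.9%. In replicate 2 the lowest class gave 64.3% of 196 (interval 57.1 to 71.0) against 47.2%, and the tallest class 97.9% (interval 94.8 to 99.4) against 98.3%. In that class the coding-exon interval included the intronic share in replicate 2 and ended just under it in replicate 1.

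**Figure D2:**
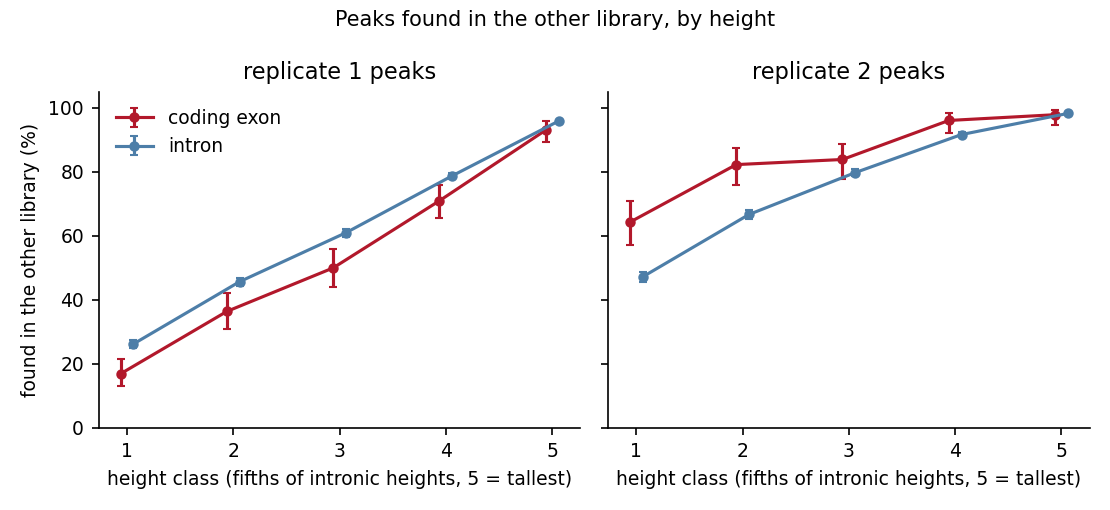
Percent of coding-exon (red) and intronic (blue) peaks of each library found in the other, in 5 height classes cut at equal shares of intronic heights, with exact 95% binomial intervals. In replicate 1 the coding-exon points run from 16.9% to 93.1% and lie below the intronic ones, and in replicate 2 they run from 64.3% to 97.9% and lie above them except in the tallest class, where they are 97.9% and 98.3%.

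Coding-exon peaks with no strict peak in the other library were then looked up in its larger peak set. Of 719 such replicate 1 peaks, 348 (48.4%) overlapped a peak of the larger replicate 2 set, against 54.1% of 11460 such intronic peaks. Of 143 such replicate 2 peaks, 94 (65.7%) overlapped a peak of the larger replicate 1 set, against 64.4% of 5532 intronic ones. Within the 793 shared peaks, the lowest false discovery rate per base had a median of 1.71e-09 in replicate 1 and 4.17e-07 in replicate 2. The base with the lowest rate lay in coding sequence for 714 (90%, interval 87.7 to 92.0) and 693 (87.4%, interval 84.9 to 89.6) of them.

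The peaks had a median width of 211 bp and ranged from 22 to 1133 bp. A median of 81.7% of their bases was coding, and 275 (34.7%) lay wholly in coding sequence. An exon boundary cut through 458 of them (57.8%), so that part of the peak was intron, 94 held a stop codon and 27 a start codon. The median coding exon was 232 bp long. Peaks that crossed a splice site lay in exons with a median of 157 bp, and those within 1 exon in exons with a median of 915 bp.

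By position in the gene, last and single coding exons held a larger share of the peaks than of the coding bases. An internal coding exon held 445 peaks (56.1%, interval 52.6 to 59.6), while internal exons made up 72.1% of the coding bases over 1000 bp from a start. A last coding exon held 249 (31.4%, interval 28.2 to 34.8) with 22.4% of the bases. Single coding exons, of genes whose whole code is in 1 exon, held 85 (10.7%, interval 8.65 to 13.1) with 5.94% of the bases, and first coding exons held 54 (6.81%, interval 5.16 to 8.79) with 4.94%. A peak can count in 2 of these classes where transcripts differ.

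Per Mb this was 57.2 shared peaks for single, 44.4 for last, 43.7 for first and 24.7 for internal coding exons. Exon length was graded in a similar way, with 23.8 peaks per Mb in coding exons under 150 bp and 29.2 in those from there up to 300 bp. Those of 300 to 1000 bp had 44.2, and longer ones 36.6. The shares depended on the distance limit: with a limit of 2500 bp, 2.53% were in first and 4.15% in single coding exons. The shares of coding bases at that limit were not computed, so whether the excess changed is not known.

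Coding-exon peaks lay nearer to starts than intronic peaks. Their median distance to the nearest start was 4849 bp, against 11279 bp for intronic peaks. How far coding and intronic sequence as a whole lies from starts was not computed, so its part in this difference was not tested. Between 1000 and 2000 bp lay 193 of the peaks (24.3%), against 10.5% of intronic ones, and over 20000 bp lay 120 (15.1%), against 33.7%. Heights were lower farther away: the median was 1.26 and 0.868 in the nearest class, and 0.861 and 0.683 in the farthest. Intronic peaks had 1.22 and 0.898, and 0.964 and 0.791. In these classes the larger difference between coding and intronic peaks was thus far from starts.

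At the limit itself, the nearest peaks inside were those of Ddit4, an inhibitor of mTORC1 signalling, at 1003 bp with heights of 2.85 and 1.64, Hcrt at 1007 bp with 3.60 and 2.08, and Cited2, a transcriptional coregulator gene, at 1009 bp with 1.35 and 0.822. Nearest outside was that of Kars, a tRNA synthetase gene, at 994 bp with 0.757 and 1.05.

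Coding-exon peaks were richer in GC and in CpG than intronic ones and than windows on coding exons without a peak. Their median GC content was 56.0%, against 50% for intronic peaks, 49.3% for intergenic peaks and 49.0% for 200 bp windows on 154342 coding exons that had no peak in either library. The median ratio of observed to expected CpG, which is low in methylated mammalian DNA, was 0.491, against 0.255, 0.268 and 0.312. The windows include flanking intron where an exon is shorter than 200 bp. They were not matched to the peaks for distance or exon length. Promoter peaks had 61.9% and 0.742, so coding-exon peaks stood between. Weighting intronic peaks to the same GC content left a difference in CpG ratio of 0.174, against 0.234 ± 0.002 (SD, n = 2 libraries' peak boundaries) unweighted.

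A peak was called CpG-rich when the 500 bp around its centre had at least 50% GC and an observed over expected CpG of at least 0.6, a usual definition of a CpG island applied to a fixed window. This held for 205 coding-exon peaks (25.9%, interval 22.8 to 29.0), against 1.75% of intronic peaks, 2.99% of intergenic peaks, 1.04% of coding exons without a peak and 63.2% of promoter peaks. The gap was present in each class of distance to a start. Between 1000 and 2000 bp, 49.7% of coding-exon peaks (interval 42.5 to 57) were CpG-rich, against 8.21% of intronic ones, and over 20000 bp 8.33% (interval 4.07 to 14.8) against 0.530%.

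**Figure D3:**
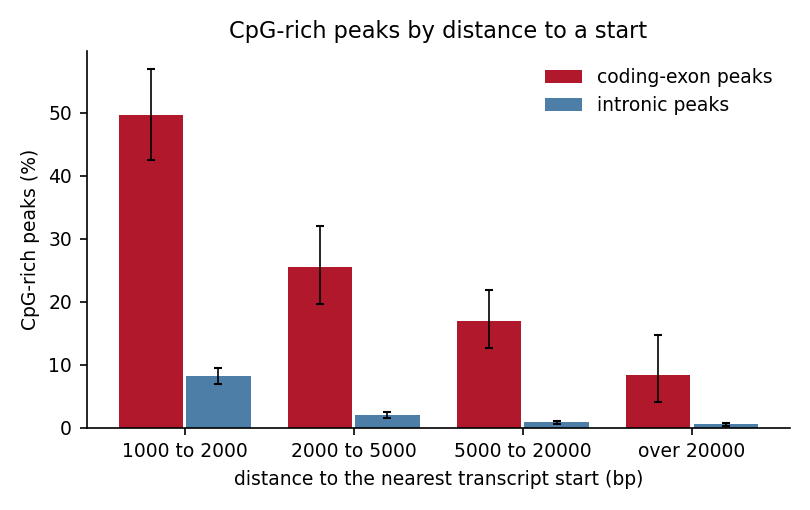
Percent of shared coding-exon (red) and intronic (blue) peaks that are CpG-rich, by distance to the nearest transcript start, with exact 95% binomial intervals. Coding-exon bars go down from 49.7% to 8.33% with distance and stand above the intronic bars in each of the 4 classes.

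The CpG-rich peaks differed from the rest in shape and place. The 205 CpG-rich peaks had median heights of 1.38 and 0.921, a median width of 260.0 bp and a median distance of 2130.0 bp, and the other 588 had 1.05 and 0.806, 200 bp and 6398 bp. A splice site cut 24.4% of the CpG-rich peaks and 69.4% of the others, and their coding exons had median lengths of 766 and 183 bp. Between the libraries, the CpG-rich peaks had a median height ratio of 1.56 and the others 1.38.

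Footprints are short stretches inside open chromatin that were cut less than their flanks, as happens where a protein covers the DNA. In replicate 1, 753 of the peaks (95%, interval 93.2 to 96.4) held a footprint, against 95.3% of intronic peaks. In replicate 2, 694 (87.5%, interval 85.0 to 89.7) did, against 90.3%. Per kb of peak the coding-exon peaks had 13.4 and 9.28 footprints, against 13.5 and 10.1 in introns. The mean difference in the share with a footprint was -1.58 ± 1.73 percentage points (SD, n = 2 libraries), within the spread between the libraries.

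Within the peaks, footprints were somewhat denser in the coding bases than in the intronic or untranslated remainder, at 13.9 against 10.8 per kb in replicate 1 and 9.68 against 7.43 in replicate 2. The coding bases lie nearer to the peak centre by the choice of peaks, and their part in this was not tested. Footprint centres fell evenly over the codon: 34.0%, 33.3% and 32.8% of 2099 on positions 1, 2 and 3 in replicate 1, and 34.1%, 35.0% and 30.8% of 1459 in replicate 2. Of the 2587 replicate 1 footprints in these peaks 1037 (40.1%) overlapped a replicate 2 footprint, and 580 peaks (73.1%) held at least 1 such footprint. Just 28 peaks had none in either library.

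The most footprints were in Tchh (chr3:93444301-93444940), with 17 and 7 in 640 bp. The other peaks with the most were those of Gdf15 (9 and 10), Crlf2 (8 and 10), the progesterone receptor gene Pgr (8 and 11) and Tiam1, a Rac exchange factor gene (11 and 7). At the other end, the peak of Cited2 spanned 740 bp with none in either library. The share was lowest for single coding exons, at 83.5% and 69.4%, and was 97.1% and 91.9% for internal ones.

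Consensus words, 21 in all, were searched on both strands over whole peaks. The CTCF word was in 98 coding-exon peaks (12.4%, interval 10.1 to 14.9), against 14.3% of intronic peaks, a difference of -1.96 percentage points (interval -4.17 to 0.537). Intervals of differences are those of the coding-exon share, with the intronic share taken as fixed, so its error is left out. The difference was below 0 under each of 13 alternatives, between -3.20 and -0.0546, the last at the same GC content (interval -2.26 to 2.44). Its interval left out 0 in 6 of them. These were -2.38 with a limit of 500 bp, -1.61 with the larger peak sets and -2.17 with replicate 1 alone. The others were -3.20 in the same broad distance classes, -2.52 at the same heights and -2.94 for words within 50 bp of the centre. In windows of 200 bp around the centre, the share was 11.6% (interval 9.46 to 14.0) for coding-exon peaks, 14.1% for intronic peaks and 1.05% for coding exons without a peak. Of the 99 words, 84 lay wholly in coding sequence, 40 on the coding strand and 59 on the other. A footprint covered 89 of them in replicate 1 (89.9%) and 76 in replicate 2 (76.8%), against 91.9% and 85.8% of those in intronic peaks, where covering means an overlap of at least 50% of the shorter of the pair.

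Peaks with the CTCF word were taller, with medians of 1.78 and 1.12, against 1.08 and 0.799 for coding-exon peaks without it. Intronic peaks showed the same step, with 1.61 and 1.09 against 1.03 and 0.829. The 6 tallest with the word were those of Synpo2l, Spi1, Epg5, A630076J17Rik, Klf1 and Hey1, with heights of 2.97 to 4.46 in replicate 1 and 2.22 to 2.98 in replicate 2. Epg5, an autophagy gene, was the most distant of them, at 15368 bp from a start. Each had at least 2 footprints in each library.

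AP-1 sites and E-boxes ran in opposite directions. The AP-1 word TGANTCA, bound by the FOS and JUN proteins of active neurons, was in 76 peaks (9.58%, interval 7.63 to 11.8), against 15.5% of intronic peaks. The E-box word CAGCTG, bound by bHLH factors, was in 233 (29.4%, interval 26.2 to 32.7), against 20.1%. With intronic peaks weighted to the same GC content the difference was -2.76 percentage points for AP-1, against -5.96 unweighted, and 6.61 for the E-box, against 9.26. In 200 bp windows both words were more common around coding-exon peaks, at 8.20% and 25.6%, than around the midpoints of coding exons without a peak, at 4.75% and 14.6%. The latter windows were not matched for GC content. Footprints covered 19.2% and 6.41% of the AP-1 words and 27.5% and 20.9% of the E-boxes in coding-exon peaks, fewer than of the CTCF words. In intronic peaks they covered 20.1% and 15.1%, and 35.4% and 24.5%.

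The NRF1 word, GCGCNTGCGC, which holds 2 CpGs and is typical of housekeeping promoters, was in 28 peaks (3.53%, interval 2.36 to 5.06), against 0.297% of intronic peaks. Those 28 had median heights of 2.48 and 1.60, against 1.13 and 0.814 without it, and they included the peaks of Angptl6 and Hcrt. Intronic peaks differed in the same direction, with 1.66 and 1.19 for the 55 with the word, against 1.08 and 0.852. Among coding-exon peaks the word was in 11.2% of the CpG-rich ones and 0.850% of the others. With intronic peaks weighted to the same GC content the difference was 2.45 percentage points, against 3.23 unweighted. The SP/KLF word GGGCGGG was in 56 peaks (7.06%, interval 5.38 to 9.07), against 4.10% of intronic peaks, but the difference turned to -6.91 percentage points against intronic peaks of the same GC content.

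Words rich in A and T were scarcer than in introns. The MEF2 word CTANNNNTAG was in 13 peaks (1.64%, interval 0.876 to 2.79), against 3.85%, and the homeobox word TAATTA in 14 (1.77%, interval 0.968 to 2.94), against 3.83%. At the same GC content the homeobox difference was -0.647 percentage points (interval -1.44 to 0.532, which includes 0), against -2.06 unweighted. The RFX word was in 6 peaks, among them those of Ino80c, Syne2, Gpr85, Abca17 and Slc38a4, with heights from 0.438 to 4.16 in replicate 1. The REST word AGCACCNNGGACAG was in 1, a peak of Gp5. The 14 words for which no difference is given, RFX and REST included, were in 0.126 to 28.1% of the peaks. The letters for linked zinc fingers were in 4 peaks, of Zfp771, Zfp78, Scrt1 and Zfp251, and are part of the protein code there.

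**Figure D4:**
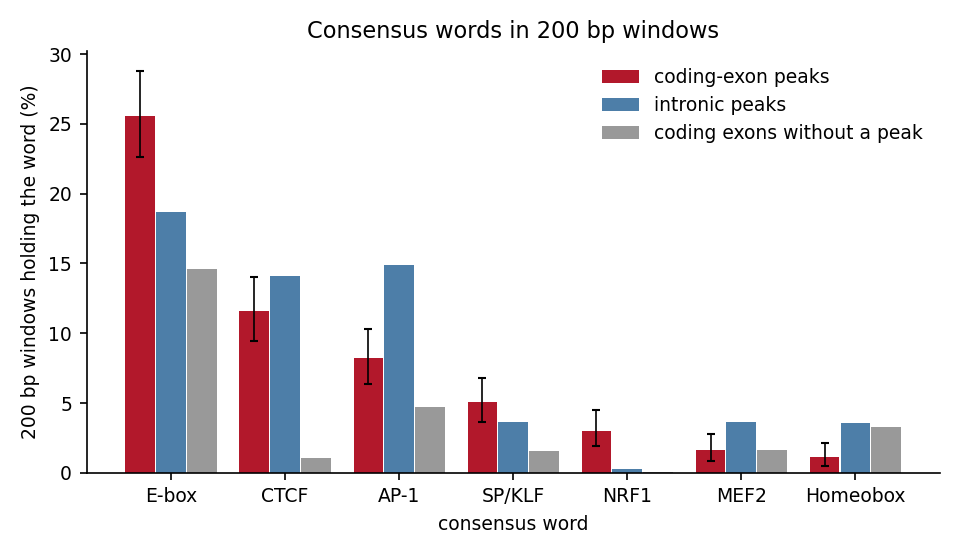
Percent of 200 bp windows that hold each consensus word, centred on shared coding-exon peaks (red, with exact 95% binomial intervals), on shared intronic peaks (blue) and on coding exons without a peak (grey). The CTCF bars are 11.6%, 14.1% and 1.05%, and the NRF1 bar stands out in coding-exon peaks at 3.03% against 0.259% in introns.

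The 793 peaks fell in 709 protein-coding genes, 3.71% of the 19115 genes that had any coding sequence over 1000 bp from a start. Most of them, 642, had 1 peak, 67 had more and 12 had at least 3. Of these 709 genes 67.8% (interval 64.3 to 71.3) also had a promoter peak in both libraries, against 62.6% of the other 18406. Genes with a peak had a median of 1733 coding bases past the limit, and the others 910.0, so peaks per Mb are given beside the counts of genes below wherever a list held a peak. Of the peaks 30 overlapped another of the 793, and 37 shared their replicate 2 peak with another, so neighbours in a gene are not independent.

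Tchh had the most, 7 peaks over 4380 bp of its last coding exon, which is 4659 bp long. Their heights along the chromosome were 0.845, 0.776, 1.41, 0.857, 0.519, 1.86 and 1.27 in replicate 1 and 0.630, 0.545, 1.01, 0.522, 0.415, 1.32 and 1.11 in replicate 2. The pair nearest the 3′ end and the third from the 5′ end were the tallest in both libraries. Tchh had no promoter peak in both libraries, its peaks had a median GC content of 60.4%, and all 7 occurred once in the assembly. Lor, which encodes loricrin of the outer skin, had 3 peaks and also no promoter peak in both libraries, with heights of 0.657, 1.03 and 0.463 in replicate 1 and 0.392, 0.875 and 0.376 in replicate 2.

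Slitrk1 had 4 peaks over 1840 bp, at 2.25, 1.21, 1.33 and 0.820 in replicate 1 and 1.53, 0.822, 0.891 and 0.614 in replicate 2. It differed from Tchh in base content, with a median GC content of 50.4% against 60.4%, and in having a promoter peak in both libraries. Lrrtm3, another neuronal gene for a synaptic adhesion protein, had 3 peaks at 0.889, 0.983 and 0.789, and at 0.706, 0.668 and 0.668. Fzd8, a Wnt receptor gene, had 4 at 1.36, 1.78, 1.03 and 1.26, and at 1.08, 1.08, 1.08 and 0.875.

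**Figure D5:**
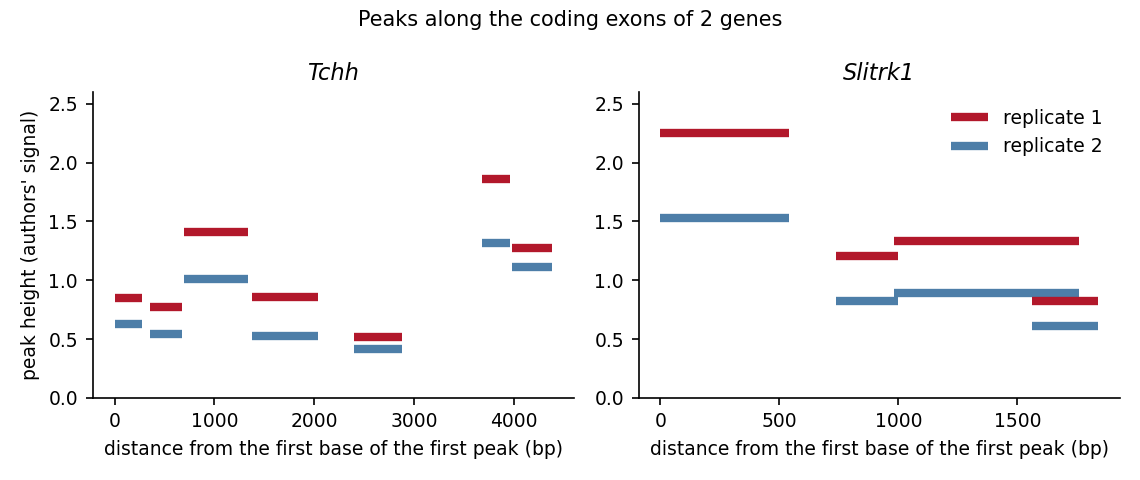
Heights of the 7 Tchh and 4 Slitrk1 peaks in replicate 1 (red) and replicate 2 (blue), drawn over the extent of the replicate 1 peak along the chromosome, in bp from the first base of the first peak. The replicate 1 value lies above the replicate 2 value for all 11 peaks, and since Slitrk1 lies on the minus strand the tallest peak is toward the 3′ end of either gene.

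The other genes with 3 peaks were Spry2 and Fjx1, for signalling regulators, Gp5, for a platelet glycoprotein, Adamts5, for a protease of the extracellular matrix, and the long cytoskeletal genes Sptbn4, Syne1 and Utrn. In Spry2 the longest peak, 1133 bp wide, spanned the other 2, and they had heights of 1.11, 1.00 and 0.932 in replicate 1, against 0.637, 0.637 and 0.699 in replicate 2. In Gp5 a pair overlapped and shared their replicate 2 peak. Those of Sptbn4 were spread over 36480 bp, those of Syne1 over 53440 bp and those of Utrn over 83040 bp, each in separate short exons, with the tallest at 2.20 and 1.68 in Syne1. Heights in these 7 genes were 0.432 to 2.20 in replicate 1 and 0.276 to 1.68 in replicate 2.

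Potassium channel, transmitter receptor and synaptic genes had peaks in a larger share of their members than the 3.71% of all genes with coding sequence past the limit. Potassium channel genes had 9 of 82 (11.0%) with 96.8 peaks per Mb, against 31.6 per Mb over all genes, and the tallest were in Kcng2 (1.81 and 1.16) and Kcnb2 (1.60 and 0.929). Glutamate and GABA receptor genes had 6 of 45 (13.3%) with 84.1 per Mb, led by Gabbr2, a GABA-B receptor subunit gene (2.42 and 1.67). Synaptic vesicle and scaffold genes had 5 of 37 (13.5%) with 64.2 per Mb. Among these were the priming factor gene Unc13a (2.86 and 1.65) and Bsn, for the active zone protein bassoon (1.51 and 0.891).

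These counts are small and depend on how the libraries were matched. When peaks had to overlap by 50% of both, potassium channel genes had 5 and synaptic genes 1, and with a limit of 2500 bp synaptic genes had 3. With replicate 1 alone potassium channel genes had 16 and synaptic genes 8, and with the larger peak sets potassium channel genes had 19. Over all genes, the 709 with a peak became 545 with the 50% overlap, and 513 and 933 with limits of 2500 and 500 bp. They were 837 with replicate 2 alone, 1269 with replicate 1 alone and 1347 with the larger sets. The counts are given as descriptions and no group was tested against the others. Sodium and calcium channel genes had 1 of 40 (2.50%, 7.56 per Mb), Scn8a, a neuronal sodium channel gene (1.42 and 1.06). That count was 0 and 3 with limits of 2500 and 500 bp, 3 with replicate 2 alone, 6 with replicate 1 alone and 9 with the larger sets, in which 1347 of all genes had a peak, so no contrast with the other channel genes is drawn.

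Genes of transcription and chromatin factors varied. Sox, Fox and bHLH factor genes had 7 of 82 (8.54%, 92.5 per Mb), led by Hey1 (2.97 and 2.22) and Sox8 (2.80 and 1.77), but 4 with the 50% overlap, 2 and 14 with limits of 2500 and 500 bp, 16 with the larger sets and 19 with replicate 1 alone. Homeobox genes had 6 of 120 (5.00%, 48.5 per Mb), with Nkx2-2, a factor of oligodendrocyte precursors, at 3 and 1.70, and Pou1f1, the pituitary factor, at 2.43 and 1.75. Chromatin regulator genes had 5 of 35 (14.3%, 45.9 per Mb), with Ncor1 at 2.13 and 1.31 and the histone methyltransferase gene Kmt2a at 1.45 and 1.02. Zfp-named C2H2 zinc finger genes had 12 of 455 (2.64%, 18.6 per Mb), below the figure for all genes, although Zfp771 and Zfp219 were among the 20 tallest. With replicate 1 alone homeobox genes had 12, chromatin regulator genes 9 and Zfp-named genes 27, and 1269 of all genes had a peak there. Of all genes, 545 had a peak with the 50% overlap, 513 and 933 with limits of 2500 and 500 bp, and 1347 with the larger sets.

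The remaining lists had between 0 and 3 genes with a peak, and none was tested against the 3.71%. Other cadherin and protocadherin genes than the clustered ones had 2 of 44 (4.55%, 12.5 per Mb), Pcdh17 (1.27 and 0.883) and Pcdh15 (0.526 and 0.461), and 1 to 7 under other settings. Olfactory receptor genes had 1 of 250 (0.400%, 11.3 per Mb), Olfr95 (0.676 and 0.376). That share is below the 3.71%, but these genes had only 0.0883 Mb of coding sequence past the limit. Histone genes had 1 of 13 (7.69%, 218 per Mb), the multi-copy Hist1h2be (1.69 and 2.37). Immediate early genes had 1 of 16 (6.25%, 73.2 per Mb), Egr4 (0.701 and 0.476), and 0 to 4 under other settings. Collagen and laminin genes had 3 of 55 (5.45%, 12.7 per Mb), with Col4a2 at 0.995 and 0.860 and Col6a4 at 0.770 and 0.568, and 9 with replicate 1 alone and 10 with the larger sets. Clustered protocadherin genes had 0 of 55, which allows a share of up to 5.45%, ribosomal protein genes 0 of 52 (up to 5.77%) and tubulin and neurofilament genes 0 of 25 (up to 12%). Myelin genes had 0 of 13 (up to 23.1%), astrocyte genes 0 of 12 (up to 25%), microglial genes 0 of 11 (up to 27.3%) and endothelial genes 0 of 10 (up to 30.0%). The limit of every list with no peak lies above the 3.71% of all genes, so a lower share was not detectable with lists of this size. These limits hold for the counts given: tubulin and neurofilament genes had 3 with a limit of 500 bp and 4 with replicate 1 alone, and the other lists with no peak had 0 to 2 under other settings. Over all genes, between 513 and 1347 had a peak under those settings.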

How the data were processed

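DNase-seq libraries of 2 animals of 1 group were used. Each library has 2 sets of peaks, false discovery rates along the genome, and footprints, all derived per the deposited descriptions from its own alignments to mm10, without pooling. The sources used here name no aligner, caller, version or threshold. The peak height is a signal deposited by the authors on an unstated scale. The false discovery rates deposited by the authors are q-values, listed where under 0.05. The footprints deposited by the authors carry the constant 0.01 in every row, read as a p-value threshold. The smaller peak set of each library was used, and its peaks lay on 21 chromosomes within the lengths of GRCm38.p6.

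Peak centres were assigned to the first class that held them: within 1000 bp of a GENCODE M21 transcript start, CDS, another exon, an intron, or between genes. A member's replicate 2 height is that of the overlapping peak. A footprint was counted with 1 bp in the peak. Copy number counts 3 words of 31 bases from each peak on both strands of the primary assembly and takes the median. Windows without a peak were 200 bp on the midpoints of coding exons. They include flanking intron where an exon is shorter, and were not matched to the members for distance, exon length or GC content. Intervals are exact (Clopper-Pearson) 95% binomial intervals and treat peaks as independent, although neighbours share their source. For a difference of shares, the interval is that of the coding-exon share less the intronic share. The error of the intronic share, weighted or not, is left out. Where a count was 0, the limit is 3 counts of the total. Weighted values gave intronic peaks the members' shares of each class of GC content, height or distance. The distance classes for this were cut at 5000 and 20000 bp only, so distances within a class can differ. Since there is 1 group, tests between conditions were not possible and none was made. A fixed rule named the 20 tallest members, genes with at least 3, the 2 tallest of each of 20 gene lists, those nearest the distance limit, the 5 with most footprints, up to 6 with the CTCF, REST or RFX word and the 3 largest and smallest height ratios. A few items that the rule names are not reported here. Dnah7b, Dnah7c, Dnmt3c, Cd200r4, Adam26b, Zfp78, Scrt1 and Zfp251 were named after their values were seen. The members, lists and words were chosen with earlier results of these data known. Placement, overlap, word, footprint and copy counts were tested on simulated data. Python 3.11.15 was used with numpy 2.4.6, pandas 2.3.3 and scipy 1.17.1. With unknown depth, the precision of single heights is unknown.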

Additional observations from a re-analysis of the deposited data

How the results depend on the processing

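Alternatives changed the overlap rule, the distance limit, the CDS rule, the transcripts, the peak set, the copies, the footprint and word rules, the comparison peaks and each library left out. The weightings to the same GC content and to the same height were added after the data were seen. The false discovery rates per base were computed once only. No paired analysis was possible because there was 1 group. Of 451 alternative values, 209 of the main results and 131 of the gene list counts stayed within the error of the value reported or within 1.5 times a count, 61 and 49 moved further, and 1 reversed. A change of sign was counted as a reversal only where the main value exceeded its error. No cause was tested for any value below.

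The 793 members became 1537 with the larger peak sets and 936 to 1512 with 1 library alone. The 709 genes became 1347, and 837 to 1269. The 67 genes with at least 2 members became 29 with a 50% overlap, 104 and 36 with limits of 500 and 2500 bp, 148 with the larger sets and 84 to 184 with 1 library. The 8 multi-copy members became 13 and 16 to 18. Spearman's rho was 0.900 with the 50% overlap. The GC difference of 6.36 points was 5.03 with that overlap, 7.50 and 4.63 with the limits of 500 and 2500 bp, 7.08 with at least 50% of bases in CDS, and 5.84 with the larger sets. The CpG difference of 0.234 was 0.212, 0.278, 0.193, 0.253 and 0.207 in the same order, 0.230 to 0.241 with 1 library, and 0.230 in the same broad distance classes.

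The share across a splice site (57.8%) was 62.6% with the 50% overlap, 54.0% and 65.3% with the limits of 500 and 2500 bp, 52.5% by CDS bases and 50.8 to 54.7% with 1 library. In the same order of settings, the share in internal coding exons was 61.9%, 48.0%, 62.8% and 52.1%, and in single ones 8.45%, 16.1% and 4.15%, with 10.1 to 13.1% for 1 library. First coding exons had 14.7% and 2.53% with the 2 limits, and last ones 26.7% with 500 bp.

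With intronic peaks weighted to the same GC content, the log2 height ratio between libraries differed by 0.034, the log2 median height by -0.15, the CpG ratio by 0.174, the AP-1 share by -2.76 and the homeobox share by -0.647 points, and the shares found in the other library by -4.65 and 2.33 points. The SP/KLF difference of 2.96 points reversed to -6.91. The share found of replicate 1 peaks differed by -6.41 points with 2500 bp. That of replicate 2 differed by 1.54 with the 50% overlap, where its interval included 0, and by 4.38 with the larger sets. The footprint difference was -4.20 points with 500 bp and -3.65 to -2.75 with 1 library. Words within 50 bp of the centre gave 5.00 points for the E-box, 1.97 for NRF1 and 0.740 for SP/KLF. NRF1 gave 1.91 with 2500 bp and 1.99 with the larger sets. The homeobox difference was -2.88 with the 50% overlap and -2.86 by CDS bases.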
